A study of Mus musculus with 16 samples.

Results

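Noncoding RNAs that host small nucleolar RNAs (snoRNAs), or that are abundant in the nucleus, were followed in neural stem/progenitor cells (NSPCs) carrying a constitutive *Dbx2* transgene. They were chosen by symbol: *Gas5*, *Snhg1*, *Snhg3*, *Snhg6*, *Snhg8*, *Snhg11*, *Snhg12*, *Malat1* and *Neat1*. Of these 9 genes, 5 were found among the 30386 genes of the expression table, namely *Snhg6*, *Snhg11*, *Snhg12*, *Malat1* and *Neat1*, and all 5 were among the 12533 genes expressed above the filter and tested. *Gas5*, *Snhg1*, *Snhg3* and *Snhg8* were not analysed here.

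The cells came from the subventricular zone of C57BL/6 J/Babr mice of 3 months of age and were grown as non-adherent cultures with EGF and FGF2. The 8 *Dbx2*-NSPC samples carried the *Dbx2* transgene and the 8 *GFP*-NSPC samples carried a *GFP* transgene in its place, so that both groups had been transfected with a plasmid, selected with puromycin and kept as bulk lines. More than a single pair of lines had been made, but the labels give only the transgene and a replicate number from 1 to 8, so samples numbered 1 to 4 and 5 to 8 were also compared apart. Nothing in the labels shows that replicates were separate derivations, and p-values measure the spread between these cultures only.

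snoRNA host genes are transcribed as long RNAs whose introns release snoRNAs, which guide the methylation or pseudouridylation of ribosomal RNA, while the spliced host RNA is often short-lived and is removed by nonsense-mediated decay during translation. *Malat1* is a nuclear RNA of the speckles in which splicing factors are stored. *Neat1* is the RNA scaffold of paraspeckles, nuclear bodies that form only around its long form. The question asked of these data was whether any of these RNAs changed in level with the *Dbx2* transgene, and whether it did so in both sets of numbers.

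Libraries were made from the 3′ ends of RNA primed with oligo-dT, so a transcript is seen only if it has a poly-A tail or an internal run of A. The sequences that bear on this are shown first. *Malat1* and the long form of *Neat1* (*Neat1*-201) are not polyadenylated but end in a triple helix, formed by U-rich runs and an A-rich run, after RNase P has cut off a tRNA-like RNA. The stretches below, from GENCODE M21 transcripts on GRCm38, have in capitals the 3 runs of 9 bases or more that the ends of both RNAs share.
*Malat1*-201: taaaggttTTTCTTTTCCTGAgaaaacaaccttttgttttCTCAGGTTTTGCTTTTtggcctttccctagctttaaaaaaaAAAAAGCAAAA
*Neat1*-201: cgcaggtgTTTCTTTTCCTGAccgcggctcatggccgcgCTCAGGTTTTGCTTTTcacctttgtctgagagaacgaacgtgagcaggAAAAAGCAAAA

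The *Malat1* stretch lies at chr19:5795982-5796073 and that of *Neat1* at chr19:5824708-5824805, both on the minus strand. Searched on the transcript strand, the runs TTTCTTTTCCTGA and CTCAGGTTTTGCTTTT occurred together in 2 of 141767 annotated transcripts, these 2. The *Malat1* run of A is 12 bases long and stands 298 bases before the annotated end of its single exon, and an oligo-dT primer could anneal to it. In *Neat1*-201 the longest run of A there is 5 bases. Which of the long form and the short, polyadenylated *Neat1*-202 gave the *Neat1* reads was not tested.

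The ends below are those of the transcripts that could carry a poly-A tail, with the poly-A signal AATAAA in capitals, shown because the reads were taken next to such ends.
*Malat1*-201: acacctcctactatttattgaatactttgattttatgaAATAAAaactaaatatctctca
*Neat1*-202: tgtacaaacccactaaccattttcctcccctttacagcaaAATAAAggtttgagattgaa
*Snhg6*-203: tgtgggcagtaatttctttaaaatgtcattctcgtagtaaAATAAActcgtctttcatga
*Snhg12*-210: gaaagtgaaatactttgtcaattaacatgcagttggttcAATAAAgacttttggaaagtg

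These ends lie at chr19:5795690-5795749, chr19:5842307-5842366, chr1:9941959-9942018 and chr4:132310965-132311024, the last on the plus strand and the others on the minus strand. AATAAA began 20 to 22 bases before the annotated end in all 4, and 21 bases before it in *Snhg11*-201. On the transcript strand, 26.6% of all annotated transcripts of at least 50 bases hold AATAAA in their last 50 bases.

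The starts of the *Snhg6* and *Snhg12* transcripts shown differed from those of *Malat1* and *Neat1*. A single annotated transcript of each was looked at, and the start of *Snhg11* was not examined. Many host genes begin with a C followed by a run of pyrimidines, the 5′ terminal oligopyrimidine tract of RNAs that encode the translation machinery, and that run is in capitals below.
*Snhg6*-203: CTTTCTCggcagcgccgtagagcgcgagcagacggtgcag
*Snhg12*-210: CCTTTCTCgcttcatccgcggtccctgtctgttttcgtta
*Malat1*-201: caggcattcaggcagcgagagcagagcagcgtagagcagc
*Neat1*-201: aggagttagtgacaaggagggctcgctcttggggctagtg

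The run was 7 bases long in *Snhg6* (chr1:9944079-9944118, minus strand) and 8 bases long in *Snhg12* (chr4:132308676-132308715, plus strand), and *Malat1* and *Neat1* had none. A start of C followed by at least 4 bases that are C or T was found in 2.02% of all annotated transcripts, and 10.9% of the tested genes had at least 1 transcript with it. Among 35 protein-coding snoRNA hosts, 34.3% had one.

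What the hosts carry in their introns is shown by 1 snoRNA each, of the box C/D kind that guides methylation, with the letters TGATGA (box C) and CTGA (box D) in capitals.
*Snord87*: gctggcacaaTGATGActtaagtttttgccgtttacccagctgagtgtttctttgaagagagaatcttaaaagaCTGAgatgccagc
*Snord99*: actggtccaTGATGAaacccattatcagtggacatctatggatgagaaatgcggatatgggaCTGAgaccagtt

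*Snord87* lies inside *Snhg6* at chr1:9942463-9942549 on the minus strand, and *Snord99* lies inside *Snhg12* at chr4:132310691-132310764 on the plus strand. *Snhg12* also holds *Snora16a*, *Snora44* and *Snora61*, of the H/ACA kind that guides pseudouridylation. The snoRNAs themselves have no poly-A tail and their levels were not analysed here.

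Depth was similar in both groups, with 1803928 to 3293285 reads counted on genes per sample, so that 3 reads, taken as the limit of detection, were worth 0.911 to 1.66 CPM (read counts scaled to the same total in every sample). Limits of this kind cover counting error only. *Dbx2* itself stood at 30.67 to 171.22 CPM in the *GFP* samples and reached 114.0 to 232.13 CPM with the transgene, and the groups overlapped within numbers 1 to 4 (89.31 to 171.22 and 135.99 to 232.13 CPM) but not within numbers 5 to 8. The 7 NSPC markers averaged at least 1 CPM in both groups. By limma 3 of 7 were lower with *Dbx2*, where 7.78% of all tested genes were called lower. They were *Pax6* (log2 fold change -0.74, limma adjusted p = 0.00025), *Egfr* (-0.45, 0.00433) and *Fabp7* (-0.72, 0.0149). The median sum of all 7 NSPC markers was 5238.1 CPM in controls (5017.1 to 5601.6) and 4487.6 CPM with *Dbx2* (4025.0 to 5285.5), ranges that overlapped. Microglia markers summed to at most 1.96 CPM in any sample, and the 3 ependymal markers to a median of 14.2 and 26.3 CPM, with *Ccdc153* called higher (1.75, limma adjusted p = 0.0102) and *Tmem212* at 0. The 4 astrocyte markers summed to 191.2 to 388.4 CPM in controls against 447.1 to 812.7 CPM with *Dbx2*, without overlap. Among single tested genes, 3.41% had no overlap in either direction. Most of the astrocyte sum was *Aldoc* (means of 207.5 and 561.8 CPM). Of the 4, *Gfap* (log2 fold change 3.31) and *Aldoc* (1.42) rose, while *Aqp4* (0.61, limma adjusted p = 0.239) and *S100b* (-0.28, adjusted p = 0.416) were not called. Mitochondrial genes held 3.18% to 6.96% of all reads in controls and 4.17% to 8.17% with *Dbx2*. RNA per cell and the number of cells of a kind cannot be told apart in bulk cultures.

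*Malat1* and *Neat1* rose in *Dbx2*-NSPCs and no call was made for the 3 snoRNA hosts. Differences were tested with limma on log2(CPM + 0.5) over all 12533 genes, with Benjamini-Hochberg adjustment, and a change was called at an adjusted p under 0.05. Over all samples 2 of 5 genes were called, both higher, where 15.8% of all tested genes were called and 8.03% were called higher. The levels in each sample are plotted by transgene and number.

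**Figure D1:**
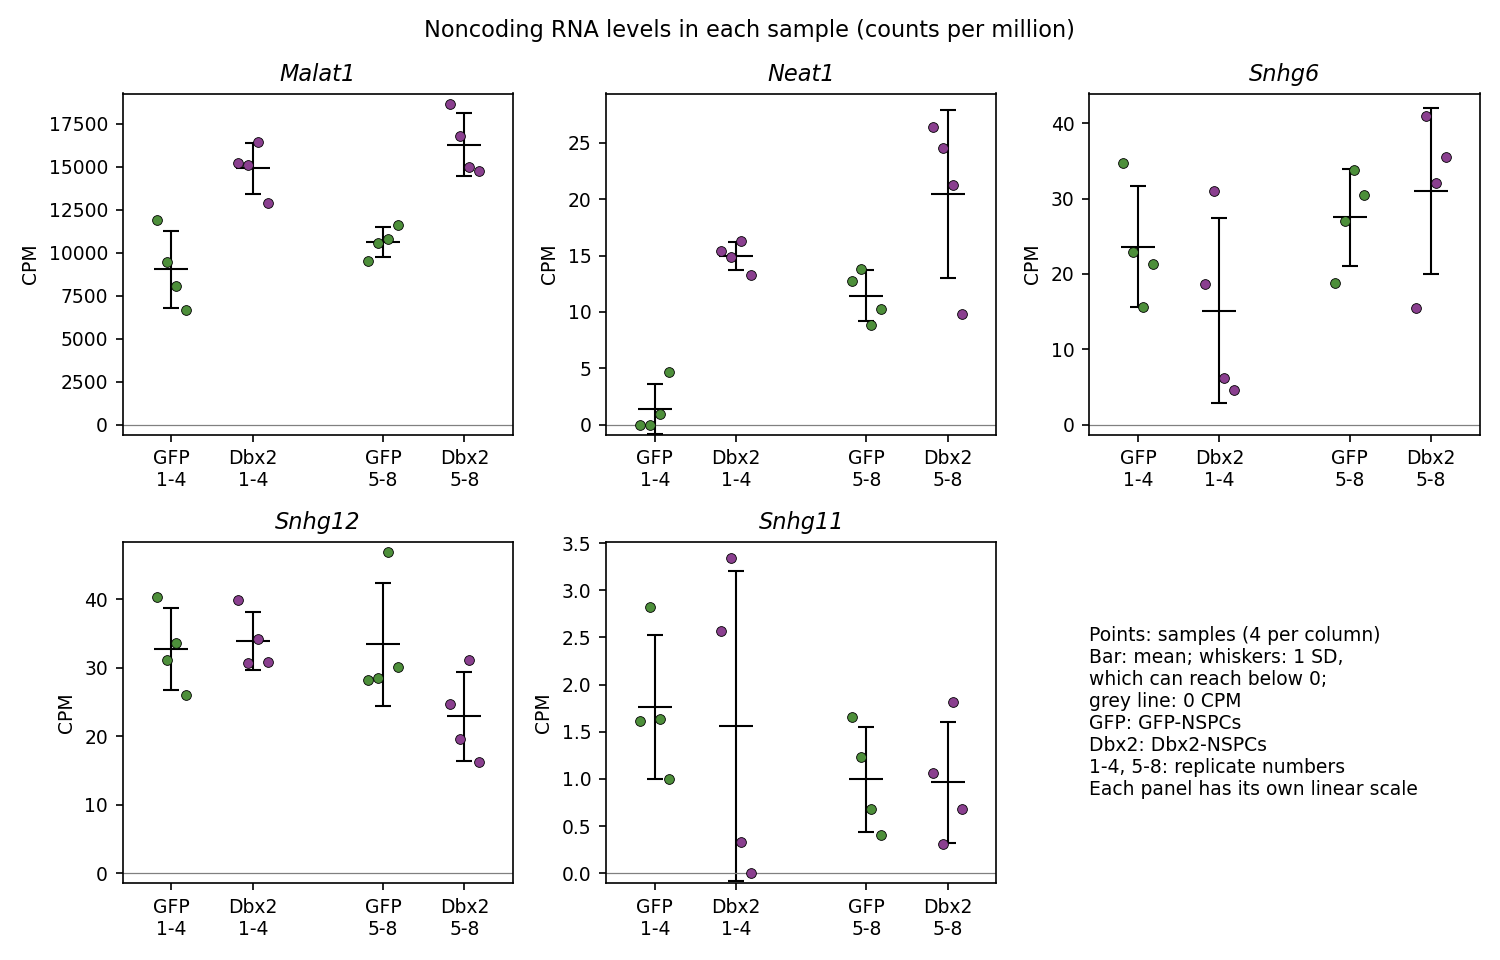
Level of each noncoding RNA in CPM (linear axes, a scale for each panel) in *GFP*-NSPCs (green) and *Dbx2*-NSPCs (purple), for replicate numbers 1 to 4 and 5 to 8; points are samples, the horizontal bar is the mean and whiskers are 1 SD, n = 4 in each column. All 8 *Dbx2* values of *Malat1* lie above all 8 *GFP* values, whereas the *Neat1* values of *GFP*-NSPCs split into a low set (0 to 4.67 CPM) and a higher set (8.88 to 13.8 CPM).

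*Malat1* (ENSMUSG00000092341, lincRNA, chr19:5795690-5802672, minus strand) measured 11898.68, 9471.49, 8054.92 and 6697.18 CPM in *GFP*-NSPC replicates 1 to 4, and 9511.49, 10570.55, 10799.61 and 11590.47 CPM in replicates 5 to 8. In *Dbx2*-NSPCs it measured 15197.28, 15100.43, 16463.86 and 12913.03 CPM in replicates 1 to 4, and 18661.97, 16761.35, 14984.15 and 14734.43 CPM in replicates 5 to 8. The lowest *Dbx2* sample was above the highest *GFP* sample, so the groups did not overlap, which was the case in either direction for 3.41% of all tested genes. Its share of all reads was 0.67% to 1.19% in *GFP* samples and 1.29% to 1.87% in *Dbx2* samples.

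*Malat1* averaged 9824.3 ± 1775.3 CPM in the *GFP* group and 15602.1 ± 1700.0 CPM in the *Dbx2* group (SD over 8 samples each). Its log2 fold change was 0.68 ± 0.12 (SE), a 1.6-fold rise with a 95% interval of 1.34 to 1.92 and a limma adjusted p of 0.000711. Since the groups did not overlap, the 2-sided exact permutation test gave the smallest p possible with 8 samples a group, 0.000155. The rise in 8 of 8 same-numbered pairs follows from the same separation and adds nothing to it. *Malat1* rose by 0.75 ± 0.19 (log2, SE) within numbers 1 to 4 (limma adjusted p = 0.0212) and by 0.61 ± 0.11 within numbers 5 to 8 (adjusted p = 0.000897). Without overlap in either set, both exact permutation tests gave p = 0.0286, the smallest that 4 samples against 4 allow, and 19.6% and 24.8% of all tested genes showed as little overlap there. Within numbers 1 to 4 the limma call was lost when *GFP* replicate 3 or 4, or *Dbx2* replicate 2 or 3, was left out. The limma adjusted p-values were then 0.0825, 0.0794, 0.0567 and 0.0783.

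By mean level, the order of the 4 sets for *Malat1* was *GFP* 1 to 4 (9030.6 CPM), *GFP* 5 to 8 (10618.0 CPM), *Dbx2* 1 to 4 (14918.6 CPM) and *Dbx2* 5 to 8 (16285.5 CPM). The ranges of both *GFP* sets overlapped, as did those of both *Dbx2* sets, and only the step between transgenes separated samples without overlap. The fold changes of the number sets differed by -0.14 on the log2 scale (5 to 8 minus 1 to 4, 95% interval -0.57 to 0.30, limma adjusted p = 0.776). The rise of *Malat1* went with those of *Gfap* and *Aldoc*, 2 of the 4 astrocyte markers, and with the lower NSPC markers given above, and their part in it was not tested.

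*Neat1* (ENSMUSG00000092274, lincRNA, chr19:5824708-5845478, minus strand) lies 22035 bases upstream of *Malat1* on the same strand. It measured 0, 0, 0.98 and 4.67 CPM in *GFP*-NSPC replicates 1 to 4, which are 0, 0, 3 and 14 reads. With 0 reads, levels of up to 1.21 and 1.06 CPM in replicates 1 and 2 could have been missed. In *GFP*-NSPC replicates 5 to 8 it measured 12.74, 13.8, 8.88 and 10.28 CPM, all above numbers 1 to 4.

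In *Dbx2*-NSPCs *Neat1* measured 15.41, 14.87, 16.28 and 13.28 CPM in replicates 1 to 4, and 26.4, 24.54, 21.22 and 9.79 CPM in replicates 5 to 8. *Dbx2* replicate 8, at 9.79 CPM (29 reads), was the lowest *Dbx2* sample and fell inside the range of the *GFP* samples, so the groups overlapped. Group means were 6.42 ± 5.74 CPM with *GFP* and 17.7 ± 5.76 CPM with *Dbx2* (SD).

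The log2 fold change of *Neat1* over all samples was 2.23 ± 0.65 (SE, 95% interval 0.86 to 3.59) with a limma adjusted p of 0.0247, and the ratio of the mean CPM was 2.76. *Neat1* was higher in 7 of 8 same-numbered pairs, and the 2-sided exact permutation test gave p = 0.00171. This call was lost in count models without the number set on the reads recovered from the CPM, with an adjusted p of 0.0534 in edgeR and 0.111 in DESeq2, where 15.4% and 17.5% of all genes were called. With the number set as a covariate in limma, where 24.2% of all genes were called, *Neat1* had an adjusted p of 0.00168, and with that covariate in edgeR, chosen after the data were seen, it was called (log2 1.73, adjusted p = 0.0023).

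The size of the *Neat1* change depended on the number set. Within numbers 1 to 4 the groups did not overlap, which was the case in either direction for 19.6% of all tested genes. The means were 1.41 ± 2.22 and 15.0 ± 1.26 CPM (SD), and the ratio of the means was 10.6. There the log2 fold change was 3.71 ± 0.62 (SE, limma adjusted p = 0.00188). With *Malat1*, 2 of 5 genes were called there, where 15.6% of all tested genes were. Within numbers 5 to 8 the means were 11.4 ± 2.25 and 20.5 ± 7.45 CPM (SD), a log2 fold change of 0.74 ± 0.28 (SE) that did not pass the threshold (limma adjusted p = 0.0746). Blocking on the replicate number, a pairing that the labels do not explain, gave an adjusted p of 0.039 there (23.8% of all genes called). In the same samples edgeR gave 0.00807 (24.7%) and DESeq2 0.0161 (21.3%). *Neat1* also passed with a filter of 10 CPM on the mean (0.0318) and without *Dbx2* replicate 8 (log2 rise of 1.06, adjusted p = 0.0034). It failed without the filter on low values (0.223) and without the eBayes trend (0.137). With any other sample of numbers 5 to 8 left out it failed too (0.0883 to 0.201). The exact permutation test within numbers 5 to 8 gave p = 0.114. *Malat1* was the only 1 of 5 genes called within numbers 5 to 8, where 23.2% of all tested genes were.

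The log2 fold change in numbers 5 to 8 minus that in numbers 1 to 4 was -2.97 (95% interval -4.38 to -1.55, limma interaction, adjusted p = 0.00491), and *Neat1* was the only 1 of 5 genes whose change differed between the sets, where 9.44% of all tested genes did. The sets were farther apart in the controls: from numbers 1 to 4 to numbers 5 to 8 *Neat1* was higher by 3.32 (log2) in *GFP*-NSPCs and by 0.35 in *Dbx2*-NSPCs. By mean level the order was *GFP* 1 to 4, *GFP* 5 to 8, *Dbx2* 1 to 4 and *Dbx2* 5 to 8, and of these only *GFP* 1 to 4 was free of overlap with every other set. *Dbx2* mRNA in the *GFP* samples also differed between the sets, at 120.4 ± 35.6 CPM in numbers 1 to 4 and 34.0 ± 3.96 CPM in numbers 5 to 8 (SD, n = 4 each); its part in the *Neat1* values was not tested.

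**Figure D2:**
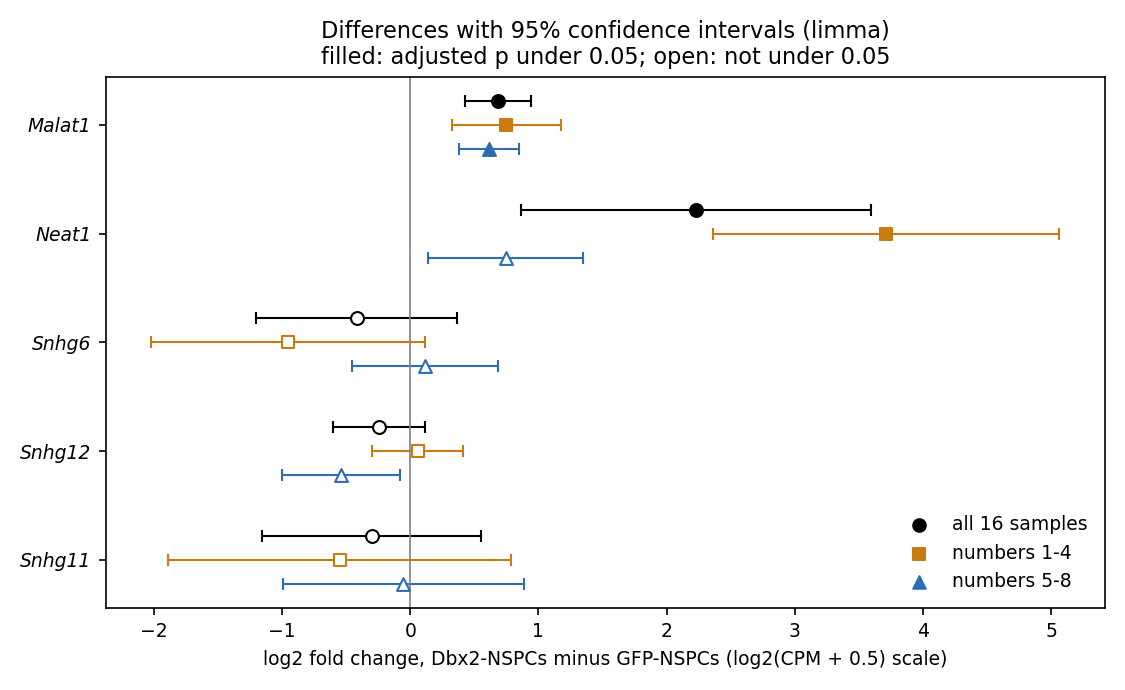
Log2 fold change of each noncoding RNA, *Dbx2*-NSPCs minus *GFP*-NSPCs, on the log2(CPM + 0.5) scale, over all 16 samples (circles), numbers 1 to 4 (squares) and numbers 5 to 8 (triangles), with 95% confidence intervals from limma; filled symbols have an adjusted p under 0.05. *Malat1* is near 0.7 in each comparison (0.68, 0.75 and 0.61), *Neat1* has 3.71 (square) against 0.74 (triangle), and intervals of the 3 snoRNA hosts over all samples include 0.

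*Snhg6* (ENSMUSG00000098234, lincRNA, chr1:9941959-9944118, minus strand), host of *Snord87*, showed the widest spread of the well-covered hosts. It measured 34.65, 22.93, 15.64 and 21.33 CPM in *GFP*-NSPC replicates 1 to 4 and 18.84, 26.99, 33.81 and 30.43 CPM in replicates 5 to 8. In *Dbx2*-NSPCs the values were 18.62, 30.96, 6.19 and 4.66 CPM in replicates 1 to 4 and 15.49, 41.0, 32.05 and 35.45 CPM in replicates 5 to 8. *Dbx2* replicates 3 and 4 (19 and 13 reads) were the lowest of all samples, while *Dbx2* replicate 6 was the highest, so the groups overlapped in full.

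The log2 fold change of *Snhg6* was -0.42 (95% interval -1.20 to 0.37, limma adjusted p = 0.5) over all samples, -0.95 (interval -2.02 to 0.12, adjusted p = 0.225) within numbers 1 to 4 and 0.12 (interval -0.45 to 0.68, adjusted p = 0.806) within numbers 5 to 8. The first and second of these intervals reach below -1 on the log2 scale and all 3 include 0. By mean level the order was *Dbx2* 1 to 4 (15.1 CPM), *GFP* 1 to 4 (23.6 CPM), *GFP* 5 to 8 (27.5 CPM) and *Dbx2* 5 to 8 (31.0 CPM), with ranges that overlapped between all neighbours. The difference between the sets, 1.07, did not pass the threshold (limma adjusted p = 0.279). The last 127 bases of *Snhg6* overlap the end of *Mcmdc2* on the other strand, which averaged 0.254 CPM with *GFP* and 0.139 CPM with *Dbx2*, and reads from this overlap cannot be assigned without knowing whether strand was used in counting.

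*Snhg12* (ENSMUSG00000086290, lincRNA, chr4:132308623-132311024, plus strand) measured 40.29, 31.04, 33.56 and 25.99 CPM in *GFP*-NSPC replicates 1 to 4 and 39.81, 30.65, 34.19 and 30.86 CPM in *Dbx2*-NSPC replicates 1 to 4, ranges that almost coincide. Replicates 5 to 8 measured 28.26, 28.53, 46.79 and 30.02 CPM in *GFP*-NSPCs and 24.64, 19.57, 31.15 and 16.21 CPM in *Dbx2*-NSPCs, lower in 4 of 4 same-numbered pairs. The means of the 4 sets were 32.7 and 33.4 CPM in controls and 33.9 and 22.9 CPM with *Dbx2*, for numbers 1 to 4 and 5 to 8, and only *Dbx2* 5 to 8 stood lower. Over all samples the log2 fold change was -0.24 (95% interval -0.60 to 0.12, limma adjusted p = 0.373).

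Within numbers 5 to 8 the log2 fold change of *Snhg12* was -0.54 (95% interval -1.0 to -0.08) with a limma adjusted p of 0.0848. It passed when the replicate number was blocked on (adjusted p = 0.0251) and in edgeR (0.0286). A filter of 10 CPM on the mean (0.0427) or leaving out *Dbx2* replicate 7 (0.0362) also let it pass. It failed in DESeq2 (0.0621), without the filter on low values (0.239) and without the eBayes trend (0.159). Leaving out any other sample of numbers 5 to 8 did not let it pass. Without *GFP* replicate 7, at 46.79 CPM, the fall shrank to -0.37 (adjusted p = 0.256 in limma). The exact permutation test over unpaired samples gave p = 0.114. Within numbers 1 to 4 the log2 fold change was 0.06 (interval -0.30 to 0.41). The difference between the sets, -0.60, did not pass the threshold (adjusted p = 0.203), so the sets were not shown to differ.

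*Snhg11* (ENSMUSG00000044349, chr2:158375638-158386145, plus strand) is known from neurons and is annotated as protein-coding in GENCODE M21, with a pair of snoRNA genes inside it. Its values lay between 0.41 and 2.82 CPM in *GFP*-NSPCs and between 0 and 3.34 CPM in *Dbx2*-NSPCs, which are 1 to 8 and 0 to 11 reads, with 30 reads summed over each group. The log2 fold change was -0.30 (95% interval -1.16 to 0.56, limma adjusted p = 0.68), and at this depth no difference was detectable. The 5 markers of neurons and neuroblasts summed to 13.29 to 40.07 CPM with *GFP* and to 12.75 to 41.53 CPM with *Dbx2*.

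Among the genes next to these loci, the call nearest to *Neat1* was *Frmd8*, which encodes a FERM domain protein and ends 4223 bases upstream of the start of *Neat1* on the same strand. *Frmd8* rose from 76.3 ± 16.3 to 108.8 ± 12.9 CPM (SD; log2 fold change 0.53, limma adjusted p = 0.00645). The 50 tested genes nearest to *Malat1*, over 1081.7 kb, had a median log2 fold change of 0.01, with 4 called higher and 1 called lower, and the rise of *Malat1* less that median was 0.68. The nearest tested genes of *Snhg6* (*Sgk3* and *Tcf24*), *Snhg12* (*Taf12* and *Trnau1ap*) and *Snhg11* (*Tgm2* and *Ralgapb*) were not called, with adjusted p-values from 0.598 to 0.974.

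The genes closest in profile to each RNA were found by the root mean square (RMS) difference of centred log2 values over the 16 samples, among 8651 genes that averaged 10 CPM or more. For *Malat1* they were *Tmem176b* and *1810058I24Rik*, at RMS differences of 0.149 and 0.151, against an RMS of 0.402 for *Malat1* itself. For *Neat1* they were *Cacna2d3* (0.833) and *Ly6e* (0.944), against 1.79 for *Neat1* itself. *Malat1* and *Neat1* differed from each other by 1.6. For *Snhg6* they were *Slc20a2* (0.413) and *Pfn1* (0.426), against 0.828 for *Snhg6* itself. For *Snhg12* they were *1700021F05Rik* (0.215) and *Sec11c* (0.229), against 0.358. For *Snhg11* they were *Dusp1* (0.52) and *Sptssa* (0.538), against 0.796. These likenesses rest on samples that share the transgene groups.

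Other snoRNA host RNAs of the same kind were then counted. Of 6 further host RNAs listed, 4 were tested, of which 2 rose and none fell, where 8.03% of all tested genes were called higher. *Snhg9*, a host of an H/ACA snoRNA annotated as an antisense gene, ranged from 203.45 to 410.6 CPM (median 258.2) in *GFP*-NSPCs and from 299.87 to 578.31 CPM (median 469.8) in *Dbx2*-NSPCs. Its log2 fold change was 0.71 ± 0.16 (SE, limma adjusted p = 0.00435), and it was called in both number sets (0.78 and 0.66). Since the use of strand in counting is not stated, reads of *Snhg9* and of a gene on the other strand cannot be told apart.

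*Snhg20* ranged from 21.99 to 32.9 CPM (median 29.8) in *GFP*-NSPCs and from 27.92 to 96.16 CPM (median 56.0) in *Dbx2*-NSPCs, a log2 fold change of 0.85 ± 0.23 (SE, limma adjusted p = 0.0151). Its change was carried by numbers 5 to 8, where *Dbx2*-NSPCs measured 73.21, 74.24, 96.16 and 75.29 CPM and *GFP*-NSPCs 26.68 to 32.9 CPM. Within numbers 1 to 4 the log2 fold change was 0.35 (adjusted p = 0.189), and the sets differed by 1.0 (limma interaction, adjusted p = 0.00189), opposite in sign to the difference of *Neat1*. *Epb41l4aos* (log2 fold change -0.25) and *Snhg10*, listed as *AC140477.3* (-0.26), were not called.

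Calls among protein-coding snoRNA hosts were in the other direction. Of 35 tested, 9 fell and none rose, 25.7% against 7.78% of all tested genes called lower, and their median log2 fold change was -0.20 against -0.02 over all tested genes. *Atp5b*, a subunit of the mitochondrial ATP synthase, fell by 0.73 ± 0.09 (log2, SE, limma adjusted p = 2.52e-05), from 855.0 to 519.7 CPM, and *Eef2*, the translocation factor of translation, fell by 0.60 ± 0.09 (adjusted p = 0.000116), from 2692.8 to 1773.1 CPM. Others that fell were *Rpl13*, *Rack1*, *Eif4a2*, *Rpl23a*, *Tpt1* and *Rps13*, most of them of the ribosome or its factors. *Rpl13*, *Rpl23a* and *Tpt1* were close to the threshold (limma adjusted p = 0.0447, 0.0487 and 0.0486) and were not called in edgeR (0.0599, 0.0727 and 0.0666). Of these others, only *Rpl13* and *Tpt1* were called within numbers 1 to 4, and only *Rack1* and *Eif4a2* within numbers 5 to 8. There 15.6% and 23.2% of all tested genes were called. With median-of-ratios scaling 6 fell and 1 rose, and with edgeR 6 fell and 1 rose. Leaving out *GFP* replicate 2 or *Dbx2* replicate 3 left 5 calls.

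Of 17 tested genes for proteins that build snoRNAs into particles, 1 fell (5.88%, against 7.78% of all tested genes called lower). It was *Znhit3*, an assembly factor of box C/D particles (log2 fold change -0.59, limma adjusted p = 0.0164, 14.3 to 9.46 CPM), and the median was -0.18. The core proteins *Fbl*, *Nop56*, *Nop58* and *Dkc1* stood at log2 fold changes of -0.13, -0.06, -0.12 and -0.34 without a call over all samples. None of them was called within numbers 1 to 4. Within numbers 5 to 8, where 23.2% of all tested genes were called, *Dkc1* (-0.63, limma adjusted p = 0.000299) and *Nop56* (-0.26, 0.0433) were called lower. Of 10 nonsense-mediated decay factors, which remove host RNAs, 2 were called, where 15.8% of all tested genes were. *Upf3b* rose (0.27, adjusted p = 0.0498) and *Smg6*, the endonuclease of the pathway, fell (-0.42, adjusted p = 0.027). The adjusted p of *Upf3b* is at the threshold, and with 1 sample left out 1 of the 10 was called, or 0 without *GFP* replicate 6 or *Dbx2* replicate 1.

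Genes for paraspeckle proteins were called lower, unlike their scaffold RNA *Neat1*. Of 13 genes for paraspeckle proteins and for the choice of the *Neat1* end, 4 fell and none rose (30.8% against 7.78% of all tested genes called lower), with a median log2 fold change of -0.25. *Hnrnph3*, a paraspeckle protein, fell by 0.69 ± 0.13 (SE, limma adjusted p = 0.00112), from 65.1 to 40.8 CPM. *Cpsf6*, part of the cleavage factor that favours the short, polyadenylated *Neat1*, fell by 0.55 ± 0.13 (adjusted p = 0.00714), from 108.6 to 73.6 CPM. The others were *Sfpq*, an essential paraspeckle protein, and *Hnrnpk*, which favours the long form (adjusted p = 0.0271 and 0.0487). Both were close to the threshold, and leaving out *GFP* replicate 6 or *Dbx2* replicate 1, 2 or 3 left 2 calls. The core members *Nono* and *Pspc1* had log2 fold changes of -0.18 and -0.25 without a call over all samples. *Pspc1* was called lower within numbers 1 to 4 (-0.50, limma adjusted p = 0.00921), where 15.6% of all tested genes were called. Within numbers 5 to 8 it had 0.002, and the sets differed by 0.50 (limma interaction, adjusted p = 0.0442). *Nono* was called lower within numbers 5 to 8 (-0.26, limma adjusted p = 0.0448), where 23.2% were called, but not within numbers 1 to 4.

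Among 13 tested genes for speckle proteins and for the processing of the *Malat1* end, 2 fell and none rose, and these 15.4% compare with 15.8% of all tested genes called in either direction and 7.78% called lower. They were *Rpp30*, a subunit of RNase P (-0.47, limma adjusted p = 0.0396), and *Srsf3*, a splicing factor (-0.36, adjusted p = 0.00555), and the median of the list was -0.11. The speckle scaffold genes *Son* and *Srrm2* had log2 fold changes of -0.11 and -0.06 without a call, and *Elac2*, which trims the tRNA-like RNA, had -0.09. Median-of-ratios scaling left 1 call, as did leaving out *GFP* replicate 2, 3, 4, 5 or 8, or *Dbx2* replicate 1, 3, 4 or 5.

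**Figure D3:**
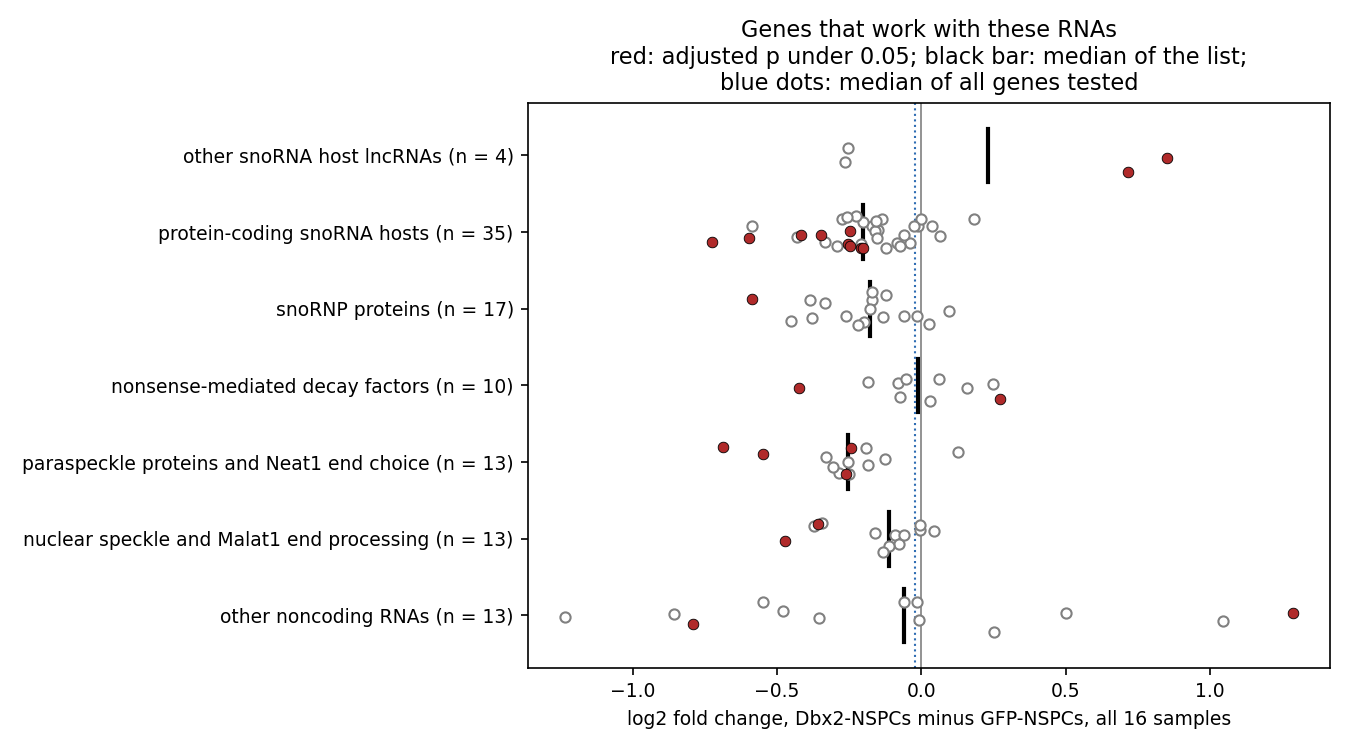
Log2 fold change of each tested gene over all 16 samples (*Dbx2*-NSPCs minus *GFP*-NSPCs) in the 7 lists named on the vertical axis with their n; red points have a limma adjusted p under 0.05, black bars are list medians and the blue dotted line is the median of all tested genes (-0.02). The red points of the protein-coding hosts (9 of 35) and of the paraspeckle list (4 of 13) are all below 0, while both red points among the other host RNAs (*Snhg9* and *Snhg20*) are above 0.

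Of 33 other noncoding RNAs looked for, 18 were in the table and 13 were tested, of which 1 rose and 1 fell (15.4% called, against 15.8% of all tested genes). *Pantr1*, a neural RNA next to *Pou3f3*, fell from 129.95 to 205.93 CPM (median 169.4) in *GFP*-NSPCs to 69.69 to 133.12 CPM (median 97.2) in *Dbx2*-NSPCs, with a log2 fold change of -0.79 ± 0.12 (SE, limma adjusted p = 0.000158). *Lncpint*, an RNA induced by p53, rose by 1.29 ± 0.33 (adjusted p = 0.0119), from 0.751 ± 0.672 to 2.36 ± 0.924 CPM (SD, limma as above), levels near that of 3 reads. It was called within numbers 1 to 4 (1.62, limma adjusted p = 0.0191) but not within numbers 5 to 8 (0.95, 0.142). The sets were not shown to differ (limma interaction, adjusted p = 0.603). *Gm42418*, which overlaps ribosomal RNA and held 5.43% to 8.76% of a sample's reads, had a log2 fold change of -0.06 and was not called.

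**Figure D4:**
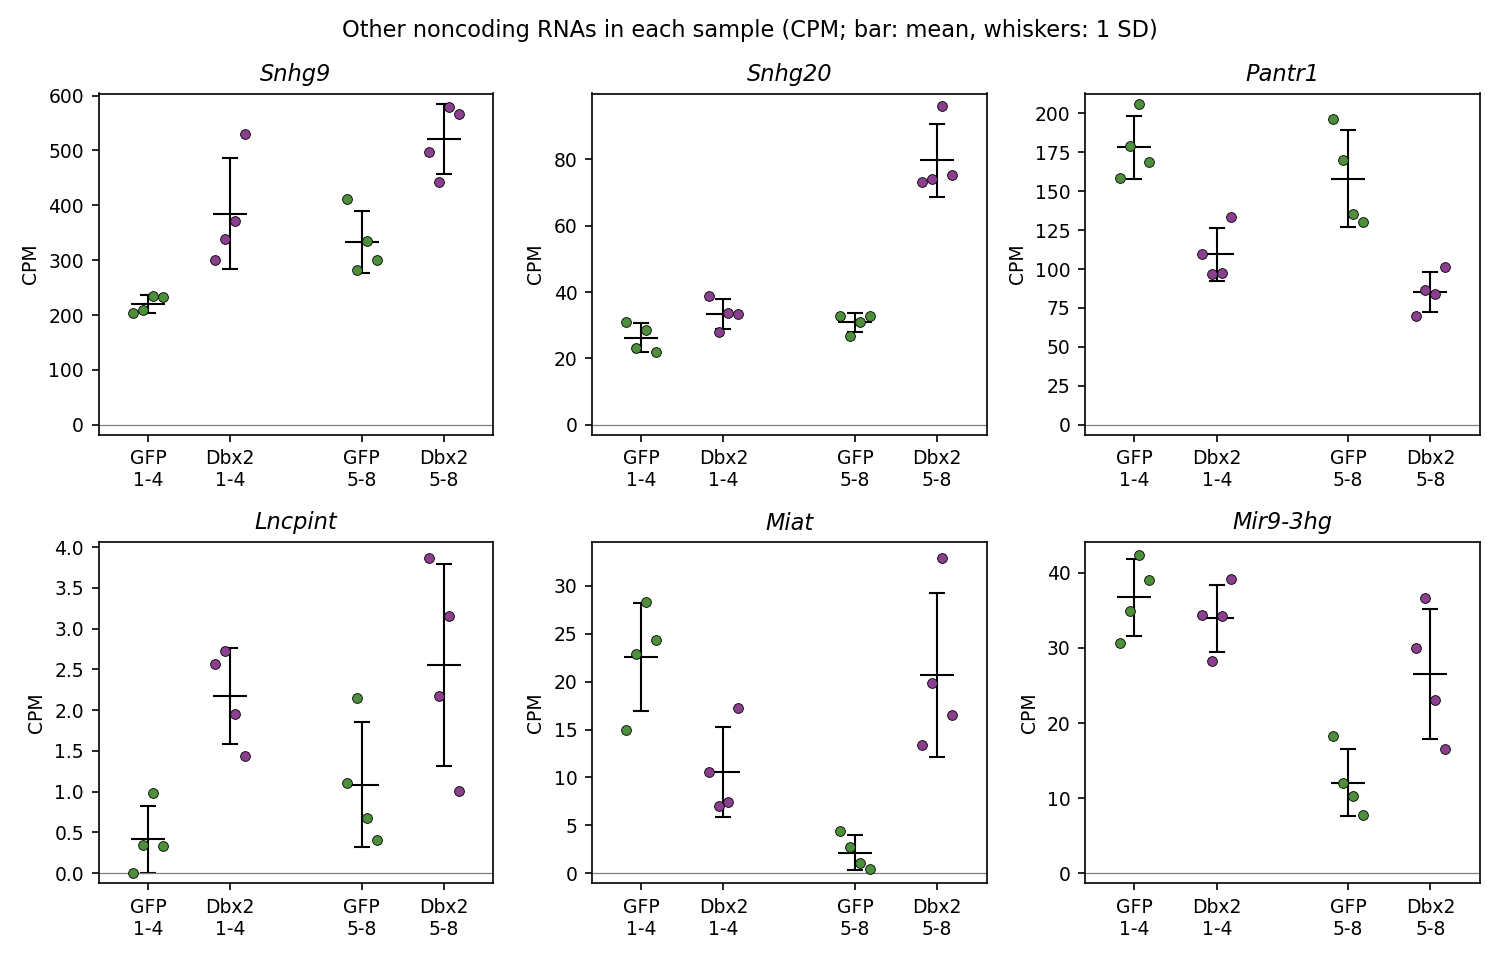
Levels in CPM (linear axes, a scale for each panel) of 6 further noncoding RNAs in *GFP*-NSPCs (green) and *Dbx2*-NSPCs (purple) for numbers 1 to 4 and 5 to 8; points are samples, horizontal bars are means and whiskers are 1 SD, n = 4 in each column. *Snhg9* is higher and *Pantr1* lower with *Dbx2* in both sets, the *Snhg20* rise is larger in numbers 5 to 8, and *Miat* is lower with *Dbx2* in numbers 1 to 4 (means 22.6 and 10.6 CPM) and higher in numbers 5 to 8 (2.15 and 20.7 CPM).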

How the data were processed

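RNA of 16 *GFP*-NSPC and *Dbx2*-NSPC cultures had been sequenced from QuantSeq 3′ libraries made with 100 ng of total RNA. The authors checked reads with FastQC 0.11.8, trimmed them with bbduk, aligned them with STAR 2.5.0a to GRCm38 with Ensembl annotation and used edgeR 3.36; the counting tool and its strand setting are not given in the sources used here. They deposited CPM (counts of reads on genes, scaled to the same total in every sample), rounded to 2 decimals; whole reads were recovered from them, 100% of values falling within 0.1 reads of a whole number.

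Groups follow the transgene named in the labels, with no column unused. Genes over 1 CPM in at least 4 of 16 samples were tested (12533) with limma 3.58.1 (lmFit, eBayes with trend, R 4.3.3) on log2(CPM + 0.5). Fold changes are on this scale, where the pseudocount shrinks changes of low genes and samples near 0 weigh more than they do in a ratio of mean CPM, so that a low gene such as *Neat1* can show a larger change than that ratio; single genes were also tested by exact permutation, 2-sided. The line covariate of the study could not be fitted, since the labels do not give the line. The fits were repeated with pseudocounts of 0.1 or 2, a mean of 10 CPM or no filter, median-of-ratios scaling, a total without *Gm42418*, eBayes without trend, edgeR 4.0.16 (which called 1928 genes on recovered reads) and DESeq2 1.42.0, the number set as covariate, samples left out in turn and the replicate number as a block. Same-numbered samples deviated together from their group means (r = 0.152 to 0.303 in the 8 pairs), and less so once number set means were removed (-0.00741 to 0.119). Among the 4 *Dbx2* samples of its own number set, the same-numbered sample was the best match for 4 of the 8 *GFP* samples. In numbers 1 to 4, but not 5 to 8, the mitochondrial share followed the same order in both groups. In replicates 1 to 4 it was 6.96%, 4.55%, 3.34% and 3.18% with *GFP*, and 8.17%, 6.58%, 5.14% and 4.17% with *Dbx2*. The labels name no shared source, so whether same-numbered samples were paired stayed undecided. The blocked values are given as alternatives only.

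Named genes are those followed, the 2 largest increases and 2 largest decreases called in each list, the 2 genes nearest in profile, the nearest tested neighbours and *Dbx2*; others were named after their values were seen. Some genes that this rule or the lists would name are not reported here. The genes followed, the lists and the number sets were chosen with earlier results of these data known. Gene positions and transcripts are from GENCODE M21, which matched 99.875% of the gene identifiers.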

Additional observations from a re-analysis of the deposited data

Results flagged for a closer look

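Of 30 groups of samples of the 5 noncoding RNAs, 1 held a sample far from the others: *Snhg12* measured 46.79 CPM in *GFP*-NSPC replicate 7, while the other *GFP* samples numbered 5 to 8 measured 28.26 to 30.02 CPM. Its gap to the next sample was 0.905 of the range of the group, and chance alone sets apart about 1 in 20 such groups. 

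By limma's interaction test, the fold changes of numbers 5 to 8 and 1 to 4 differed for 6 of 31 genes looked at. The same test found a difference in 9.44% of all tested genes. The 31 were the RNAs followed, the noncoding genes of the lists and the largest called changes in each list. *Pspc1*, given above, was not among them. The log2 difference was -2.97 for *Neat1* (adjusted p = 0.00491) and 1.0 for *Snhg20* (adjusted p = 0.00189). For *Miat*, an RNA of nuclear bodies in neural cells, it was 4.32 (adjusted p = 6.13e-06): the level fell with *Dbx2* from 14.91 to 28.35 CPM to 6.98 to 17.22 CPM in numbers 1 to 4, and rose from 0.41 to 4.43 CPM to 13.38 to 32.96 CPM in numbers 5 to 8. For *Mir9-3hg*, a host of miR-9, it was 1.22 (adjusted p = 0.015), with *GFP* means of 36.7 and 12.1 CPM and *Dbx2* means of 34.0 and 26.5 CPM in numbers 1 to 4 and 5 to 8. For *H19*, an imprinted RNA, it was 2.47 (adjusted p = 0.0238), with 2.33 to 17.28 CPM in *GFP* numbers 1 to 4, 0.65 to 1.61 CPM in *Dbx2* numbers 1 to 4, and at most 0.31 CPM, below the level of 3 reads, in every sample numbered 5 to 8. For *Gm26917*, which resembles ribosomal RNA, so that its reads are uncertain, it was -0.97 (adjusted p = 0.00462), with *GFP* means of 153.0 and 500.4 CPM and *Dbx2* means of 118.6 and 196.5 CPM. As for *Neat1*, the means of *Miat*, *Mir9-3hg*, *H19* and *Gm26917* differed between the number sets in the *GFP* controls.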

How the results depend on the processing

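Over all samples, *Malat1* kept its direction under the 13 processing alternatives, and its call under each of them that gave a test (all but the subtraction of the median of its neighbours), 1 of them (edgeR with the number set as a covariate) chosen after the data were seen (log2 fold change 0.68 to 0.71) and with each sample left out (0.61 to 0.73). The 2 calls over all samples became 1 with edgeR and 1 with DESeq2, which lost *Neat1* (1.51 and 1.5). Without the filter on low values, 1 call was left in numbers 1 to 4 and 0 in numbers 5 to 8, where *Malat1* had adjusted p-values of 0.318 and 0.202 in limma; the cause was not tested. In numbers 5 to 8, 3 were called with a filter of 10 CPM on the mean, 3 with edgeR, 3 with the replicate block and 2 with DESeq2. Leaving out each sample gave 1 to 2 calls in numbers 1 to 4 and 1 to 2 in numbers 5 to 8. Signs turned only in uncalled genes, with ranges over the samples left out of -0.044 to 0.163 for *Snhg12* in numbers 1 to 4, -0.052 to 0.413 for *Snhg6* and -0.309 to 0.195 for *Snhg11* in numbers 5 to 8, and -0.031 to 0.95 for the set difference of *Snhg11*. The replicate block changed no other call of the 5 genes. With the number set as a covariate, 3034 in place of 1982 of all genes and, by list, 14 protein-coding hosts, 3 snoRNP proteins, 4 speckle genes and 5 other noncoding RNAs were called; the block gave 4 speckle genes, median-of-ratios scaling 1, and edgeR 4 other noncoding RNAs. With each sample left out, chosen after the data were seen, calls ranged from 5 to 10 for protein-coding hosts, 1 to 2 for snoRNP proteins, 0 to 1 for decay factors, 2 to 6 for paraspeckle genes and 1 to 3 for speckle genes. Depth limits *Snhg11* and *Lncpint*, and *Neat1* in *GFP* numbers 1 to 4.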

Other observations

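In a summary by GENCODE gene class, chosen after the data were seen, long noncoding RNAs were called higher more often than lower. Of 283 lincRNAs tested 30 rose and 8 fell (10.6% and 2.83%), with a median log2 fold change of 0.17, and of 235 antisense RNAs 16 rose and 5 fell (6.81% and 2.13%), with a median of 0.21. Of 11993 protein-coding genes 957 rose and 961 fell (7.98% and 8.01%), with a median of -0.03. The difference between the classes was not tested.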
